A study of Mus musculus with 24 samples.

Results

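The interferon-stimulated genes described here were the 44 rows of a mouse count table of 51912 genes whose Ensembl identifiers carry the symbols of a list of known interferon targets. They were set out as 32 targets of type I interferon and 12 genes induced most by interferon-γ, which are the guanylate-binding proteins (GBP), the immunity-related GTPases (IRG) and the CXCL chemokines. In ears with mutant Card14 switched on, 37 of the 43 members that could be tested were higher than in wild-type ears at day 5. At 1 month 16 were higher. The shares of all genes tested were 20.7% and 25.5%. At 1 month 6 of the 7 members from the oligoadenylate synthetase (OAS) family were still called higher. Of the 9 GBP and IRG members Ifi47 alone was. The difference between these families was not tested. Several of these calls depended on the setting. With limma voom, an alternative fit, Oasl1 and Oas3 were not called, and Gbp3, Gbp5, Gbp7 and Irgm1 were called higher.

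RNA of whole ears of C57BL/6 mice was sequenced after polyA selection in 24 libraries. Mutant mice carried Card14 with the E138A change behind a removable stop cassette (Card14 LSL-E138A) together with CreERT2, a recombinase that tamoxifen activates, and the labels do not name the promoter that drives CreERT2. Wild-type mice received the same tamoxifen, given intraperitoneally on consecutive days, so all groups share that treatment. There were 6 mutant and 6 wild-type libraries at day 5, counted from the first injection, and 6 mutant and 6 wild-type libraries at 1 month. The age and sex of the mice are not stated, nor is it stated that each library came from a separate animal, so a p-value here reflects library-to-library spread, which may be technical.

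Interferons are secreted alarm proteins. Type I interferons act through the receptor IFNAR1 and IFNAR2 and assemble the factor ISGF3, of which STAT2 and IRF9 are subunits and which binds interferon-stimulated response elements (ISRE). Interferon-γ, made mainly by T cells and natural killer cells, acts through IFNGR1 and IFNGR2 and reaches its targets at gamma-activated sites (GAS), and many targets answer to either kind of interferon. In keratinocytes CARD14 assembles a signalling complex that activates NF-κB, a factor that can also switch on some of these genes, Cxcl10 among them.

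The letters GAAANNGAAA (ISRE), TTCNNNGAA (GAS) and the NF-κB motif were looked for on both strands in the 250 bases before the start of each gene, in RefSeq promoters of GRCm38. Promoters were found for 32 of the 44 members, and those of Dhx58, Zbp1, Usp18, Oas1b, Oas2, Mx1, Mx2, Ifi27l2a, Parp14, Rtp4, Cxcl11 and Iigp1 were not used here. An ISRE match was present in 19 of the 32 members (59.4%), against 2.98% of 32851 promoters of all genes. It was present in 8 of 10 GBP, IRG and CXCL genes and in 11 of 22 type I targets. A GAS match was present in 4 of 10 and 3 of 22, against 7.02% of all promoters, and an NF-κB match in 2 of 10 and 2 of 22, against 3.9%. Where a gene had a pair of promoters a match in either was counted, and a match describes these letters only.

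The promoters of 5 members are shown because they carry the arrangements that the members differ in. Each runs 5′ to 3′ on the strand of the gene and ends at the base before the RefSeq start, and capitals mark the ISRE, GAS or NF-κB matches. They lie at chr4:156200819-156200938 (minus strand), chr19:34583358-34583528 (plus), chr5:120907526-120907645 (minus), chr11:58199436-58199555 (plus) and chr5:92348890-92349117 (minus) in GRCm38.
Isg15: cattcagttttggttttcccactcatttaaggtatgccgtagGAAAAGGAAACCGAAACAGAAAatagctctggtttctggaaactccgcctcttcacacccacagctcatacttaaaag
Ifit3: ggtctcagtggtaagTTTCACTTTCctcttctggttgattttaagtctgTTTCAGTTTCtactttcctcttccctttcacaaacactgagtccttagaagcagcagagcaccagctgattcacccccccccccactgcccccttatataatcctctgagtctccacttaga
Oas1a: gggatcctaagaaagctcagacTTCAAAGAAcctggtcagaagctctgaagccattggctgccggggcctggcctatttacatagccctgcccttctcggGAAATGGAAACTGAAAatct
Igtp: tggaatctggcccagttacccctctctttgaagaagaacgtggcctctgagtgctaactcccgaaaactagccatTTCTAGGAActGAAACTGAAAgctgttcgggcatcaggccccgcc
Cxcl10: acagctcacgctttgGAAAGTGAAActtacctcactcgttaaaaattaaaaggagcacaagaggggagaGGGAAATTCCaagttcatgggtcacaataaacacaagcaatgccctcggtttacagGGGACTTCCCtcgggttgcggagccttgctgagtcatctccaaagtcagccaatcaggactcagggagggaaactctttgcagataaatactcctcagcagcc

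Isg15 held 3 overlapping ISRE matches, the nearest ending 56 bases before the start. Ifit3 held 2 separate ones, and Oas1a held 2 overlapping ones, the nearest ending 4 bases before the start, with a GAS match farther off. Igtp had a GAS match and an ISRE match side by side, an arrangement also found in Irgm2. Cxcl10 had 1 ISRE match and 2 NF-κB matches, and the other member promoters with an NF-κB match were those of Oasl1, Bst2 and Gbp5. In Bst2 matches of different motifs overlapped. Of the 19 members with an ISRE match 17 were higher in mutant ears at day 5. Of the 13 without one 10 were, and the share of all genes tested was 20.7%. The 6 members with both an ISRE and a GAS match (Oas1a, Bst2, Gbp5, Gbp7, Irgm2 and Igtp) were all called higher at that time. Of the 11 members with no match to any of these motifs in the window 9 were higher too, all but Cmpk2 and Ifi44.

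Several members neighbour each other in the genome (GENCODE M21, GRCm38). Ifit1, Ifit2, Ifit3 and Ifit3b lie between 34550694 and 34650009 on chromosome 19, the 5 Oas genes between 120730333 and 120907521 on chromosome 5, and Gbp2, Gbp3, Gbp5 and Gbp7 between 142493978 and 142638008 on chromosome 3. Ifit3 with Ifit3b and Oas1a with Oas1g are close copies whose reads the counting may have divided. Irgm2 and Igtp overlap on the same strand of chromosome 11, so their counts are uncertain likewise. The annotation lists Oas1b, Mx2 and Cxcl11 as polymorphic pseudogenes, meaning copies broken in the reference genome but intact in some strains. The counts measure RNA, and whether these mice make a working protein from any member, Mx1 included, was not tested.

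Library totals ran from 16803680 to 18852963 counts in mutant and 15661515 to 16998900 in wild-type ears at day 5, and from 20608274 to 23022149 in mutant and 19255028 to 23904976 in wild-type ears at 1 month. Card14 had 9.93 to 25.3 CPM (counts for each 1e+06 of the TMM-scaled library total) in mutant and 32.9 to 49.9 CPM in wild-type ears at 1 month, and did not differ by the edgeR test at day 5 (adjusted p = 0.943). The keratinocyte markers Krt5, Krt14, Krt1, Krt10, Trp63 and Dsg3 summed to 24026 to 33749 CPM in mutant and 19223 to 27551 CPM in wild-type ears at day 5, and to 27175 to 47077 CPM in mutant and 14568 to 25554 CPM in wild-type ears at 1 month. Markers of ear cartilage summed to 151 to 283 CPM in mutant and 360 to 503 CPM in wild-type ears at day 5, and to 140 to 297 CPM in mutant and 302 to 734 CPM in wild-type ears at 1 month. Those of muscle summed to 952 to 1893 CPM in mutant and 2382 to 3367 CPM in wild-type ears at day 5, and to 421 to 2902 CPM in mutant and 3318 to 12546 CPM in wild-type ears at 1 month. Cartilage and muscle sums were thus lower in every mutant library than in any wild-type one of the same time, and their part in the results was not tested. At 1 month Y-linked genes summed to 17.9 to 267 CPM, in a graded series. On either side of a limit of 80 CPM lay mutant library 2 (67.6 CPM) and wild-type library 4 (102 CPM). Under this limit, which was set after seeing the data, were 4 libraries, namely mutant libraries 1, 2 and 6 and wild-type library 2. In 3 of these, all but mutant library 2, deviations from the mean of all libraries also followed the GC content of genes, with a rank correlation above 0.4 across genes, which are not independent replicates. It was of the opposite sign in mutant libraries 3, 4 and 5 (-0.41, -0.47 and -0.43) and wild-type library 1 (-0.43) of 1 month.

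At day 5 mutant ears had higher levels of almost the whole set. Called higher at an adjusted p below 0.05 were 37 of the 43 members tested, against 20.7% of the 17287 genes tested, and 0 were called lower, against 20.2%. The median log2 fold change was 1.32 over the members and -0.02 over all genes. All mutant libraries lay above all wild-type ones for 34 of the 43, against 17.9% of all genes. By class, 26 of 32 type I targets (median log2 fold change 1.27) and 11 of 11 GBP, IRG and CXCL genes (median 1.36) were higher. Cxcl11, a ligand of the chemokine receptor CXCR3, had too few counts to be tested and reached at most 0.324 CPM in mutant and 0.232 CPM in wild-type ears at day 5.

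**Figure D1:**
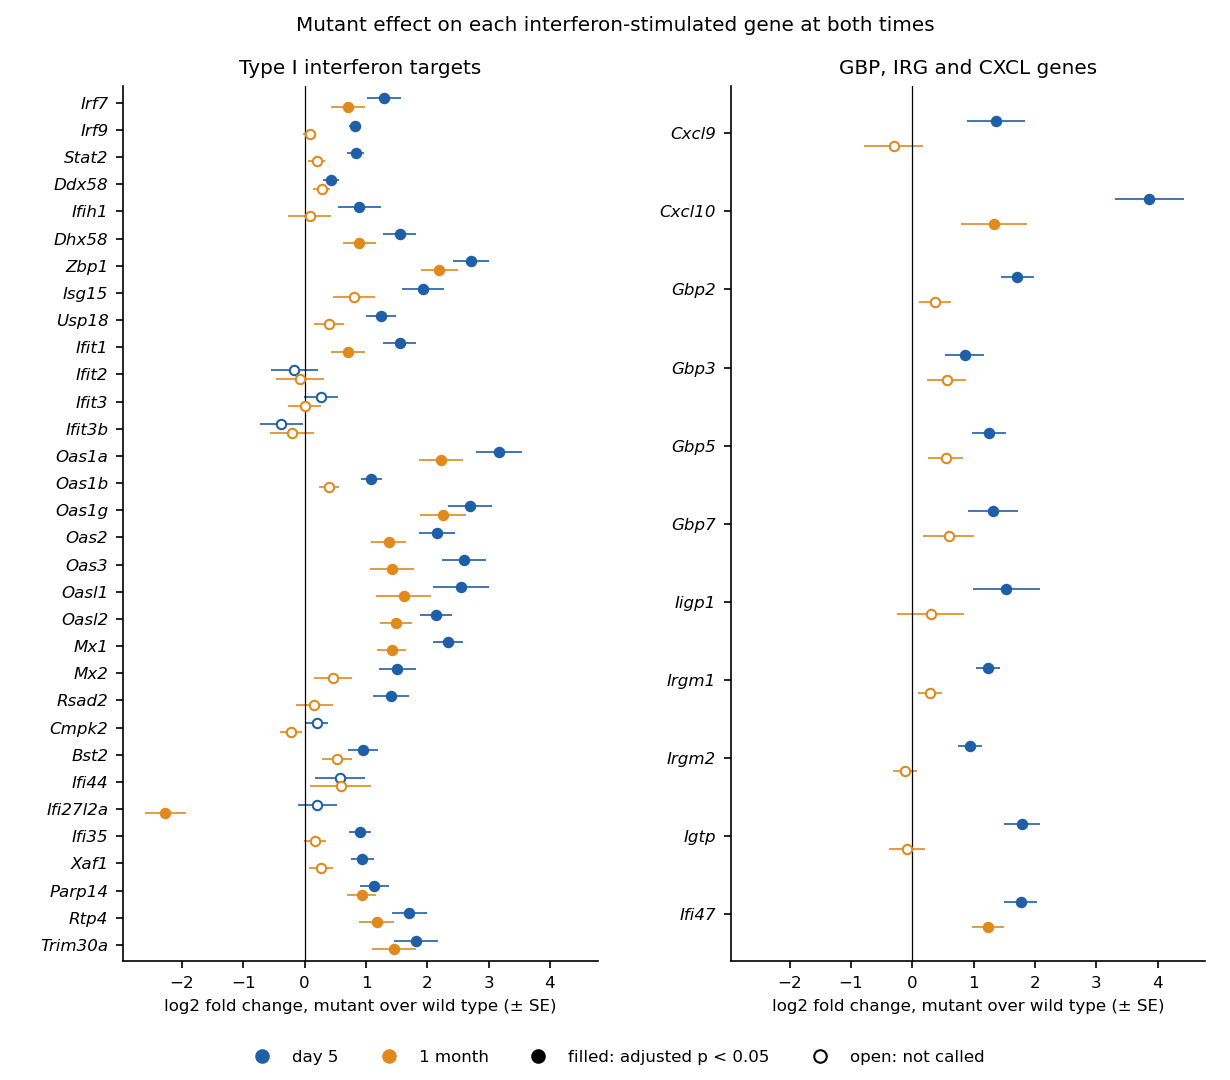
Log2 fold change of mutant over wild-type ears (horizontal axis, bars show the SE) for the 43 members tested, at day 5 (blue) and 1 month (orange), with filled points called at an adjusted p below 0.05. At day 5 37 points are filled and right of 0, and at 1 month 16 are filled and right of 0 and Ifi27l2a is filled at -2.28.

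The genes that carry the interferon signal were higher in every mutant library at day 5. Irf7, the factor that amplifies type I interferon responses, had 19.9 CPM in the lowest, 28.6 in the median and 38.5 in the highest mutant library, against 8.51, 11.4 and 15.8 CPM in wild-type libraries. No mutant library overlapped a wild-type one, and the log2 fold change was 1.30 ± 0.28 (SE, n = 6 per group, edgeR adjusted p = 0.000566). Stat2, a subunit of ISGF3, had 60.9, 74.5 and 98.9 CPM in mutant against 35.9, 43.4 and 49.8 CPM in wild-type libraries, again without overlap (0.83 ± 0.14, adjusted p = 4.49e-05). Irf9, its DNA-binding subunit, had 63.5, 71.5 and 81 CPM in mutant against 34, 40.2 and 46.7 CPM in wild-type libraries (0.82 ± 0.10, adjusted p = 9.13e-07). These were moderate changes with a narrow spread among libraries.

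Among the sensors of foreign nucleic acid, Zbp1 changed most. ZBP1 recognises Z-form nucleic acid and can start necroptosis. It had 9.32, 19 and 30.3 CPM (lowest, median and highest) in mutant against 1.66, 2.88 and 3.65 CPM in wild-type libraries at day 5, a log2 fold change of 2.71 ± 0.30 (adjusted p = 2.11e-07). The groups were far apart, although mutant libraries themselves differed widely. Ddx58 (RIG-I), Ifih1 (MDA5) and Dhx58 (LGP2), the receptors of viral RNA, rose by 0.43, 0.89 and 1.55 on the log2 scale. Ifih1 lost its call when any of 12 libraries was left out (adjusted p up to 0.0869), and Ddx58 was the only sensor whose mutant and wild-type libraries overlapped.

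Isg15, a ubiquitin-like protein that is attached to other proteins, had 6.88, 8.8 and 12.6 CPM in mutant against 1.36, 2.53 and 3.32 CPM in wild-type libraries at day 5. Every mutant library lay above the highest wild-type one, with a log2 fold change of 1.92 ± 0.34 (adjusted p = 9.43e-05). Usp18, which removes ISG15 and restrains the type I receptor, rose by 1.25 ± 0.25 (adjusted p = 0.000295).

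The 7 members from the OAS family, whose active enzymes make the activator of the antiviral nuclease RNase L, were all higher at day 5. Oas1a had 6.75, 14.5 and 16.8 CPM in mutant against 0.74, 1.53 and 1.99 CPM in wild-type libraries, the largest change among type I targets (log2 fold change 3.17 ± 0.38, adjusted p = 7.68e-07). Mutant libraries 1 and 3 were low and the other 4 lay close together, all clear of wild type. Oas1g, Oas3, Oasl1, Oas2 and Oasl2 followed with 2.69, 2.60, 2.55, 2.16 and 2.14, and Oas1b had 1.09.

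The RNA of Mx1, a gene of the dynamin-like antiviral GTPases, had the smallest adjusted p of all members at day 5. It had 5.64, 7.77 and 12.3 CPM in mutant against 1.21, 1.36 and 2.54 CPM in wild-type libraries, without overlap (2.34 ± 0.24, adjusted p = 9.37e-08). Mx2 rose by 1.51 ± 0.30.

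The IFIT genes, whose products bind viral RNA, did not move together. Ifit1 had 11.2, 14.2 and 19.7 CPM in mutant against 2.16, 5.05 and 8.4 CPM in wild-type libraries at day 5 and rose by 1.55 ± 0.27 (adjusted p = 6.97e-05). Its neighbours had log2 fold changes of -0.17 ± 0.39 (Ifit2), 0.26 ± 0.28 (Ifit3) and -0.38 ± 0.35 (Ifit3b), none of them called (adjusted p = 0.769, 0.476 and 0.418). Their libraries overlapped between genotypes, and Ifit3 shared with Ifit1 a pair of ISRE matches in its promoter.

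Of the other type I targets, Trim30a (1.81), Rtp4 (1.70), Rsad2 (1.41), Parp14 (1.14), Bst2 (0.95), Xaf1 (0.94) and Ifi35 (0.91) rose at day 5, each with mutant libraries above all wild-type ones. Rsad2 encodes viperin, which makes a chain-terminating nucleotide, and Bst2 encodes tetherin, which holds budding virus at the cell surface. Cmpk2, the neighbour of Rsad2 on chromosome 12, was not called (0.20 ± 0.18, adjusted p = 0.42), nor were Ifi44 (0.58 ± 0.41, adjusted p = 0.271) and Ifi27l2a (0.21 ± 0.32, adjusted p = 0.649).

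**Figure D2:**
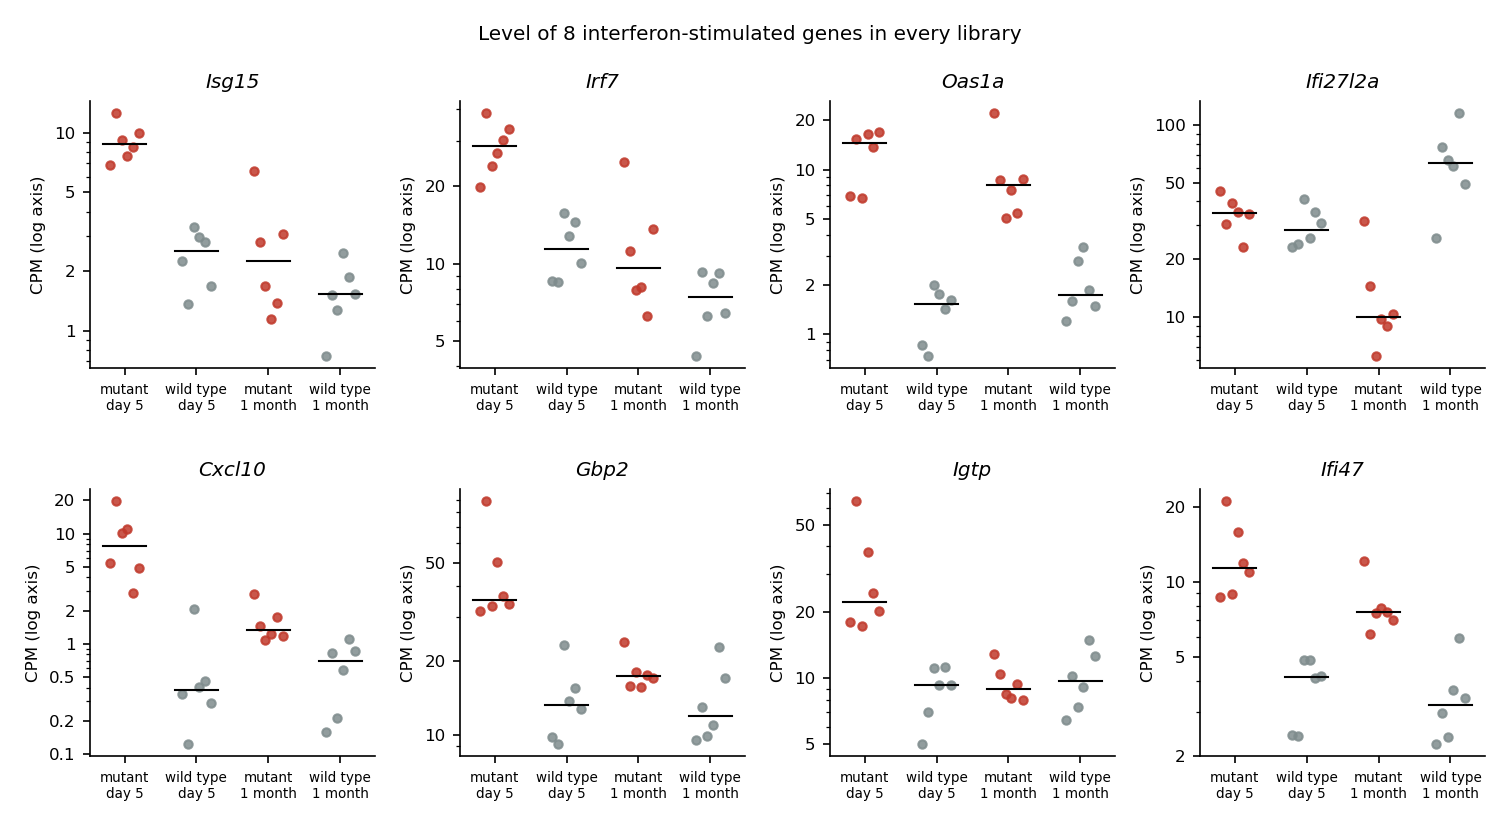
CPM on a log axis of 8 members in each of the 24 libraries, with mutant groups (red) left of wild-type groups (grey) at each time and a line at the median of 6. Oas1a and Ifi47 stay above wild type at both times, Igtp is at 22.4 CPM in the median mutant library of day 5 and at 8.94 CPM at 1 month, and Ifi27l2a is lower in mutant ears at 1 month.

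The chemokines and GTPases of the interferon-γ class were higher at day 5, with a wide spread among mutant libraries. Cxcl10, a CXCR3 ligand that draws in T cells, had 2.89, 7.74 and 19.9 CPM in mutant against 0.123, 0.378 and 2.05 CPM in wild-type libraries, the largest change of any member (log2 fold change 3.87 ± 0.56, adjusted p = 8.86e-06). Cxcl9 had 2.11, 4.17 and 18.7 CPM in mutant against 1.57, 2.26 and 5.86 CPM in wild-type libraries, groups that overlapped (1.36 ± 0.47, adjusted p = 0.0224). Mutant library 2 was the highest for both chemokines, and without it Cxcl9 had 0.77 and was not called (adjusted p = 0.159). Its call was also lost without wild-type library 5 (1.25, adjusted p = 0.0512) or mutant library 4 (1.20, adjusted p = 0.0588).

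Gbp2, a GTPase that attacks vacuoles holding microbes, had 31.7, 35.4 and 89.1 CPM in mutant against 9.19, 13.2 and 23.1 CPM in wild-type libraries at day 5 (1.71 ± 0.27, adjusted p = 2.44e-05). Library 2 stood at the top, and the next mutant library had 50.1 CPM. Gbp7 (1.32), Gbp5 (1.25) and Gbp3 (0.86) rose too. The Gbp3 call was lost without any 1 of 6 libraries, to an adjusted p of 0.0983 without mutant library 2.

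The 5 IRG genes among the members, GTPases that coat the same vacuoles, all rose. Igtp had 17.3, 22.4 and 64.7 CPM in mutant against 5.03, 9.36 and 11.2 CPM in wild-type libraries (1.78 ± 0.29, adjusted p = 3.76e-05). Irgm1, a regulator of the other family members, had 28.1, 32.7 and 60.3 CPM in mutant against 12.4, 16.4 and 19.3 CPM in wild-type libraries (1.23 ± 0.19, adjusted p = 2.39e-05). Ifi47 had 8.66, 11.4 and 21.3 CPM in mutant against 2.4, 4.14 and 4.84 CPM in wild-type libraries (1.77 ± 0.26, adjusted p = 1.25e-05). For these 3 genes all mutant libraries lay above all wild-type ones. Irgm2 rose by 0.94 ± 0.20 (adjusted p = 0.000516).

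Iigp1, the best studied effector of the family, had 17.6, 29.7 and 82.5 CPM in mutant against 7.34, 14 and 19.4 CPM in wild-type libraries, a log2 fold change of 1.53 ± 0.55 (adjusted p = 0.028). Its lowest mutant library fell within the wild-type range. The call was lost without mutant library 2 (1.14, adjusted p = 0.105), mutant library 4 (1.44, adjusted p = 0.0525), wild-type library 1 (1.41, adjusted p = 0.0613) or wild-type library 2 (1.41, adjusted p = 0.0622). With the highest library of each day 5 group left out, 25 type I targets and 9 GBP, IRG and CXCL genes were still called higher.

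At 1 month fewer members were called, and the largest rises were those of Oas1g, Oas1a and Zbp1. Called higher were 16 of 43 members, against 25.5% of all genes tested, and 1 was called lower, against 21.5%. The median log2 fold change was 0.53 over the members and 0.05 over all genes. All mutant libraries lay above all wild-type ones for 7 members, against 12.2% of all genes. By class, 14 of 32 type I targets were higher and 1 lower (median 0.56), and 2 of 11 GBP, IRG and CXCL genes were higher (median 0.37). With the 4 libraries low in Y-linked genes left out these counts were 14 higher and 1 lower, and 3 higher. With limma voom 5 GBP, IRG and CXCL genes were called higher (median 0.96), among them Gbp3 (1.23), Gbp7 (1.34) and Gbp5 (0.96).

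Of the 7 OAS members 6 were still higher. Oas1a had 5.11, 8.05 and 22 CPM in mutant against 1.21, 1.73 and 3.39 CPM in wild-type libraries at 1 month, a log2 fold change of 2.22 ± 0.36 (adjusted p = 2.04e-05). Oas1g had 1.45, 1.99 and 3.85 CPM in mutant against 0.274, 0.451 and 0.619 CPM in wild-type libraries (2.26 ± 0.37, adjusted p = 2.28e-05). The groups did not overlap for either gene, and mutant library 1 was the highest for Oas1a, with 8.76 CPM in the next. Oasl1, Oasl2, Oas3 and Oas2 had 1.61, 1.49, 1.43 and 1.37, and Oas1b had 0.39 and was not called (adjusted p = 0.0523). Without the 4 libraries low in Y-linked genes Oasl1 had 0.70 (adjusted p = 0.23) and Oas1b 0.52 (adjusted p = 0.0362). With limma voom Oasl1 had 0.48 (adjusted p = 0.33) and Oas3 0.78 (adjusted p = 0.0889). Without the 3 libraries of GC correlation above 0.4 Oasl1 had 0.79 (adjusted p = 0.145) and Oas3 0.88 (adjusted p = 0.0578), so the calls of both rest on the setting.

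Zbp1 had 5.12, 6.32 and 14.3 CPM in mutant against 0.984, 1.69 and 2.05 CPM in wild-type libraries at 1 month, without overlap (2.20 ± 0.30, adjusted p = 1.94e-06). Mx1 rose by 1.42 ± 0.24 (adjusted p = 2.87e-05), Trim30a by 1.46, Rtp4 by 1.17, Parp14 by 0.93 and Dhx58 by 0.89. Rtp4 encodes a chaperone of membrane receptors and Parp14 an ADP-ribosyltransferase. Dhx58 was not called without the 4 libraries (0.37, adjusted p = 0.265).

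Of the signalling genes Irf7 alone was called at 1 month. It had 6.28, 9.65 and 24.9 CPM in mutant against 4.38, 7.42 and 9.32 CPM in wild-type libraries (0.71 ± 0.28, adjusted p = 0.037). Mutant library 1 was far above the rest, and without it Irf7 had 0.36 (adjusted p = 0.208). The call was lost without any 1 of 7 libraries, and without the 4 libraries low in Y-linked genes the value was 0.08 (adjusted p = 0.808). Stat2 had 27.8, 38.2 and 43 CPM in mutant against 23.1, 32.6 and 43.4 CPM in wild-type libraries and was not called (0.20 ± 0.14, adjusted p = 0.252), nor was Irf9 (0.08 ± 0.10, adjusted p = 0.546).

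Isg15 had 1.15, 2.25 and 6.4 CPM in mutant against 0.743, 1.53 and 2.47 CPM in wild-type libraries at 1 month and was not called (0.81 ± 0.35, adjusted p = 0.0595). Mutant library 1 was again the highest. Its value was 0.37 without that library and -0.18 without the 4 libraries low in Y-linked genes (adjusted p = 0.661), and it was called when any 1 of 4 other libraries was left out. Ifit1 rose by 0.71 ± 0.28 (adjusted p = 0.0374), a call lost without any 1 of 8 libraries (adjusted p up to 0.105).

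Ifi27l2a moved against its class. It had 6.28, 10.1 and 31.5 CPM in mutant against 25.7, 63.4 and 115 CPM in wild-type libraries at 1 month and fell by 2.28 ± 0.34 on the log2 scale (adjusted p = 6.16e-06). Mutant library 1 overlapped wild-type library 1, and the other 5 mutant libraries lay below every wild-type one. Per kilobase of exon it was the most abundant member, with 29.4 CPM per kilobase in mutant and 142 in wild-type ears.

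In the interferon-γ class only Ifi47 and Cxcl10 were called at 1 month. Ifi47 had 6.19, 7.55 and 12.1 CPM in mutant against 2.23, 3.19 and 5.93 CPM in wild-type libraries, without overlap (1.23 ± 0.26, adjusted p = 0.000412). Cxcl10 had 1.09, 1.35 and 2.81 CPM in mutant against 0.156, 0.701 and 1.11 CPM in wild-type libraries, which overlapped slightly (1.33 ± 0.54, adjusted p = 0.047). This call was lost without any 1 of 15 libraries (adjusted p up to 0.116). Cxcl9 had 0.973, 1.47 and 2.71 CPM in mutant against 0.821, 1.77 and 3.19 CPM in wild-type libraries (-0.30 ± 0.48, adjusted p = 0.646).

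The remaining GTPases had overlapping groups at 1 month, and the 4 GBP genes had log2 fold changes of 0.37 to 0.59, none called. Gbp2 had 15.6, 17.3 and 23.8 CPM in mutant against 9.54, 12 and 22.7 CPM in wild-type libraries (0.37 ± 0.26, adjusted p = 0.264). Igtp had 7.98, 8.94 and 13 CPM in mutant against 6.49, 9.73 and 14.9 CPM in wild-type libraries (-0.09 ± 0.29, adjusted p = 0.833). Iigp1 had 1.07, 6.31 and 15 CPM in mutant against 0.862, 5.05 and 12 CPM in wild-type libraries (0.30 ± 0.55, adjusted p = 0.69). The libraries low in Y-linked genes were the lowest of their groups for Iigp1, Gbp3, Gbp7, Ifih1 and Trim30a, members picked after their values were seen. For Irf7, Ifi35, Dhx58 and Bst2, picked likewise, the 3 mutant libraries low in Y-linked genes were instead the highest of their group. Ifi35 had 25.7 to 36.6 CPM in these 3 and 15.6 to 17 CPM in the other 3 mutant libraries. Gbp7 had 1.7 to 6.54 CPM in the 3 mutant libraries of that kind and 17.4 to 22.7 CPM in the other 3, and 3.41 CPM in the wild-type one and 6.01 to 11.2 CPM in the other 5. Without the 4 libraries Gbp7 rose by 1.10 (adjusted p = 0.00183), Gbp3 by 0.92 (adjusted p = 0.00374), Ifih1 by 0.49 (adjusted p = 0.0172) and Ddx58 by 0.41 (adjusted p = 0.0149). The part of these libraries' GC dependence and Y-linked level in that was not tested.

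The mutant effect at 1 month was then set against that at day 5 within the same fit. Of the 43 members 8 had a lower effect at 1 month, against 4.09% of all genes, and 0 a higher one, against 4.68%. The difference was negative for 40 of 43 members, with a median of -0.73 (0.02 over all genes). These were 3 of 32 type I targets, Ifi27l2a (-2.48 ± 0.46, adjusted p = 0.00101), Irf9 (-0.74 ± 0.14, adjusted p = 0.0013) and Stat2 (-0.63 ± 0.20, adjusted p = 0.0439). They were also 5 of 11 of the interferon-γ class, namely Igtp (-1.87 ± 0.41, adjusted p = 0.0043), Irgm2 (-1.06 ± 0.28, adjusted p = 0.0173), Gbp2 (-1.34 ± 0.38, adjusted p = 0.0262), Irgm1 (-0.94 ± 0.27, adjusted p = 0.0308) and Cxcl10 (-2.54 ± 0.77, adjusted p = 0.0413). No member of the OAS family was called, with differences of -0.44 to -1.17.

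The median of this difference was -0.79 for the 7 OAS genes and -0.72 for the 4 GBP genes. The class medians were -0.66 for type I targets and -1.06 for the interferon-γ class, and the gap between classes was not tested. Without the 4 libraries low in Y-linked genes 11 of 32 and 5 of 11 were called lower, and without mutant library 1 of 1 month alone 6 of 32. With limma voom 20 of 32 were called lower and 1 higher. The Stat2 call was lost without any 1 of 18 libraries, that of Cxcl10 without any 1 of 17 and that of Irgm1 without any 1 of 7 (adjusted p up to 0.0973, 0.0832 and 0.0592). The Gbp2 call was lost without wild-type library 1 or 2 of day 5 or wild-type library 5 of 1 month (adjusted p up to 0.0512).

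**Figure D3:**
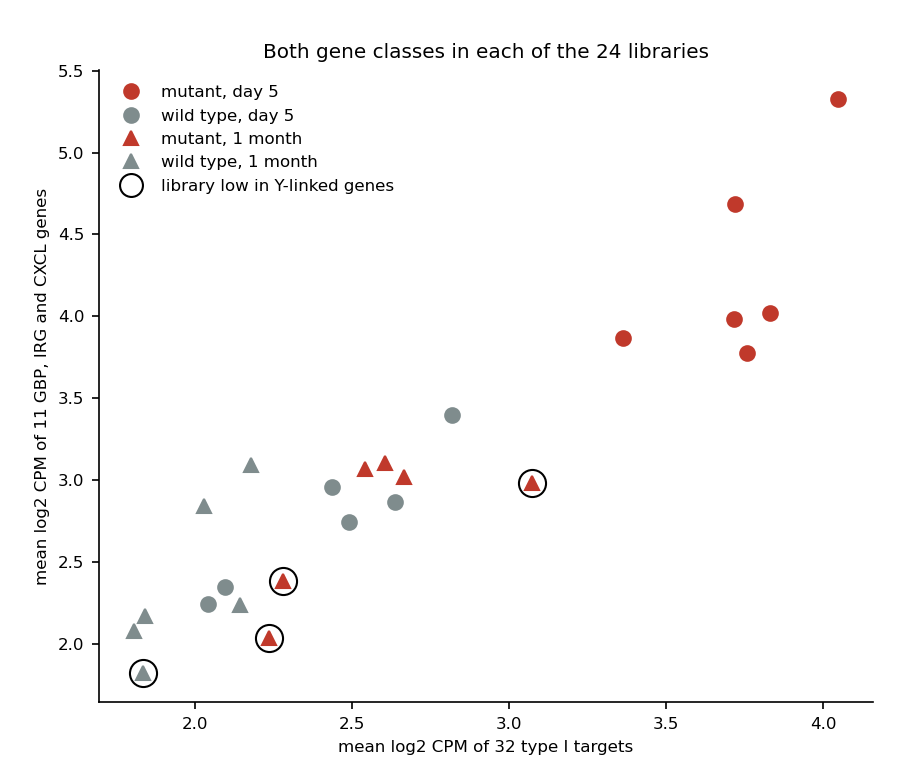
Mean log2 CPM of the 32 type I targets (horizontal axis) and of the 11 GBP, IRG and CXCL genes tested (vertical axis) in each of the 24 libraries, with mutant in red, wild type in grey, day 5 as circles, 1 month as triangles, and rings around the 4 libraries with under 80 CPM of Y-linked genes. Mutant libraries of day 5 stand apart at the upper right, with library 2 at 5.33 on the vertical axis.

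Levels were next compared between times within each genotype. Within mutant ears 35 of 43 members were lower at 1 month than at day 5, against 8.23% of all genes, and 0 were higher, against 11.2%. Within wild-type ears 6 were lower, against 2.81%, and 1, Ifi27l2a, was higher, against 6.28%. The lower members in wild type were Ifit1 (-1.30), Rtp4 (-1.06), Oasl2 (-1.07), Ddx58 (-0.50), Ifi44 (-2.08) and Gbp3 (-1.04). Age and time after tamoxifen cannot be told apart, and these comparisons share their libraries with those between genotypes.

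The mean log2 CPM of the type I targets was 3.36 to 4.05 in mutant and 2.04 to 2.82 in wild-type libraries at day 5, and 2.24 to 3.07 in mutant and 1.81 to 2.18 in wild-type libraries at 1 month. At both times every mutant library lay above every wild-type one. For the GBP, IRG and CXCL genes the mean was 3.77 to 5.33 in mutant and 2.24 to 3.40 in wild-type libraries at day 5, and 2.04 to 3.10 in mutant and 1.82 to 3.09 in wild-type libraries at 1 month, where the groups overlapped. At day 5 mutant library 2 was the highest of its group for 27 of 43 members and wild-type library 3 for 29.

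Of the interferons themselves few counts were seen. Ifnb1, 13 Ifna genes, Ifnk, Ifne, Ifnl2 and Ifnl3 had 0 counts in all 24 libraries. Ifng had 14 counts in mutant libraries of day 5 (in 4 of 6 libraries) and 0 in wild type, and 14 in mutant libraries of 1 month (in 6 of 6) and 1 in wild type. Ifnz, an interferon-ζ gene, had 8 counts in mutant and 2 in wild-type libraries of day 5, and 4 in mutant and 7 in wild-type libraries of 1 month. These counts were too few to be tested, and lower levels were not detectable at this depth.

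Receptors of the pathway were mostly higher at both times. Of 6 receptor subunits 5 were higher at day 5 (20.7% of all genes), and at 1 month 4 were higher (25.5% of all genes) and 1 lower (21.5%). Ifngr1, the binding chain for interferon-γ, had 182, 209.8 and 219 CPM in mutant against 80.7, 93.5 and 114 CPM in wild-type libraries at day 5 (log2 fold change 1.11). At 1 month it had 124, 148 and 163 CPM in mutant against 138, 158 and 206 CPM in wild-type libraries (-0.17, not called), and the effects differed by -1.28. Ifngr2 rose at both times (0.90 and 1.09), as did Ifnar1 (0.39 and 0.57) and Ifnar2 (0.76 and 0.53), while Ifnlr1, the receptor for interferon-λ, fell by 0.71 at 1 month.

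Of 10 kinase and IRF genes 7 were higher at day 5 and 8 at 1 month, against 20.7% and 25.5% of all genes. Irf1, which carries the interferon-γ signal onward, had 41.1, 50.4 and 79.2 CPM in mutant against 12.2, 15.4 and 19.9 CPM in wild-type libraries at day 5 (1.74), and 30.5, 35.3 and 49.5 CPM in mutant against 15.9, 19.6 and 26.6 CPM in wild-type libraries at 1 month (0.89). Its groups did not overlap at either time, and its effect at 1 month minus that at day 5 was -0.85 (edgeR adjusted p = 0.0226).

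Of 8 inhibitors of the pathway 3 were higher at both times, not far above the 20.7% and 25.5% of all genes. Socs1, which blocks the receptor kinases, rose by 2.11 at day 5 and 1.64 at 1 month, and Socs3 by 3.01 and 1.42. Of 9 sensors and adaptors 3 rose at day 5 and 5 at 1 month, against the same shares, among them Tmem173 (STING, 2.26 and 1.88) and Aim2, a sensor of cytosolic DNA (0.58, not called, and 2.44).

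**Figure D4:**
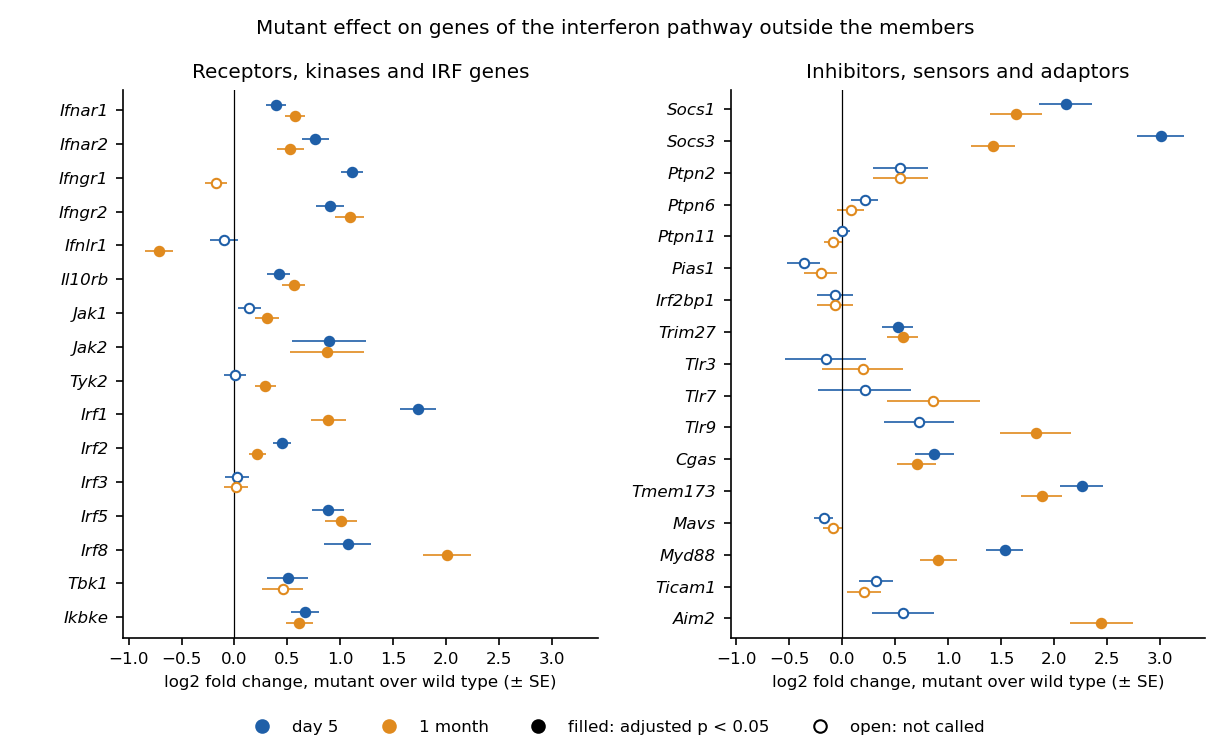
Log2 fold change of mutant over wild-type ears (horizontal axis, bars show the SE) for receptors, kinases and IRF genes on the left and inhibitors, sensors and adaptors on the right, at day 5 (blue) and 1 month (orange), filled where called. Irf1, Socs1 and Socs3 are called at both times and Ifngr1 at day 5 alone.

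Lists of immune cell markers differed in the direction of their mutant effect. The 8 neutrophil markers were Csf3r, Cxcr2, Mmp8, Mmp9, Retnlg, Ly6g, S100a8 and S100a9. They summed to 1942 to 8774 CPM in mutant and 17.7 to 23.5 CPM in wild-type ears at day 5. At 1 month they summed to 3222 to 7139 CPM in mutant and 29.6 to 77 CPM in wild-type ears. Of 7 tested 7 were higher at day 5 and 6 at 1 month, against 20.7% and 25.5% of all genes. Their median log2 fold change was 6.99 at day 5 and 3.54 at 1 month. Single markers ran from 1.35 to 10.03 at day 5 and from 0.26 to 7.96 at 1 month. The sum therefore need not stand for every marker. For 4 of the 7 the effect was lower at 1 month, against 4.09% of all genes. The 10 monocyte and macrophage markers summed to 628 to 1550 CPM in mutant and 441 to 554 CPM in wild-type ears at day 5, and to 995 to 1788 CPM in mutant and 385 to 895 CPM in wild-type ears at 1 month. The 8 T cell markers summed to 16.7 to 26.2 CPM in mutant and 30.9 to 37.2 CPM in wild-type ears at day 5, and to 29.1 to 51.5 CPM in mutant and 33 to 42.1 CPM in wild-type ears at 1 month. The members of that list moved apart, and at 1 month Cd4 (2.19), Cd8a (2.69), Trac (1.35) and Cd5 (1.42) were called higher and Cd3e (-2.09) and Cd3g (-1.93) lower on the log2 scale, of 7 tested. At day 5 the 9 natural killer and cytotoxic markers summed to 7.4 to 12.6 CPM in mutant and 7.49 to 10.4 in wild-type ears. At 1 month they summed to 4.4 to 9.21 CPM in mutant and 9.97 to 17.3 CPM in wild-type ears. Eomes was at 0 in wild type. These markers also moved apart. Of 6 tested 2 were higher and 1 lower at day 5 (log2 fold changes of -0.77 to 4.34). At 1 month 2 were higher and 2 lower (-3.62 to 2.63). The 8 plasmacytoid dendritic cell markers summed to 120 to 212 CPM in mutant and 251 to 308 CPM in wild-type ears at day 5, and to 73.6 to 225 CPM in mutant and 146 to 403 CPM in wild-type ears at 1 month. Tcf4 made up most of that sum, with a mean of 121 CPM in mutant and 174 CPM in wild-type ears at 1 month, and of 7 markers tested 2 were higher and 2 lower at day 5 and 4 higher and 1 lower at 1 month. Their part in the levels of the members was not tested, and in whole ears more cells of a type and more RNA per cell cannot be told apart.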

How the data were processed

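Whole-ear RNA of 24 libraries (4 groups of 6) was read as a deposited table of expected counts for 51912 Ensembl genes, made by the authors with RSEM 1.3.0 and STAR 2.5.2 on GRCm38, per the submitters' processing notes. Whether counting used strand is not given there. Of the deposited expected counts 6.71% were not whole, and all were rounded. The least different pair of libraries in a group had a chi-square per degree of freedom of 4.86, so none was treated as a duplicate. Symbols came from GENCODE M21 for 51633 identifiers, and promoters from RefSeq GRCm38.p6.

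The 17287 genes kept by filterByExpr were fitted in edgeR 4.0.16 (R 4.3.3) with TMM factors, 1 coefficient per group and a robust quasi-likelihood F test. P-values were adjusted by Benjamini-Hochberg over all genes tested, with calls below 0.05. CPM used TMM-scaled library totals, and log2 CPM a prior count of 2. The script was tested on simulated data. Alternatives were DESeq2 1.42.0, limma 3.58.1 voom, other scalings, filters and sample sets, a replicate block and leaving out each library.

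The members and lists were chosen with earlier results of these data known. Values are given for all members that led each class by adjusted p or size of change, moved against their class or have a defining role, and the rest are summarised. Library totals of 15661515 to 23904976 counts set the precision. A gene of the pathway is not reported here.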

Additional observations from a re-analysis of the deposited data

Results flagged for a closer look

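Within a group of 6, a library was singled out when its gap to the nearest other exceeded Dixon's limit, on CPM with 0.1 added on a log scale. This met 11 of 172 groups, where chance gives about 1 in 20. Mutant library 1 of 1 month was the highest of its group for Oas1a (22.02 CPM), Rtp4 (13.33 CPM), Gbp2 (23.79 CPM) and Ifi47 (12.13 CPM), and mutant library 2 of 1 month the lowest for Stat2 (27.83 CPM). At day 5 mutant library 6 was the lowest for Ddx58 (27.13 CPM) and mutant library 3 the highest for Mx2 (5.575 CPM). Among wild-type libraries, library 3 of day 5 was the highest for Ifih1 (26.11 CPM), library 2 of 1 month the lowest for Ifih1 (4.147 CPM) and Ifit2 (1.683 CPM), and library 5 of 1 month the lowest for Oas1b (1.504 CPM).

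The mutant effect at 1 month minus that at day 5 passed the edgeR test for 8 members, all lower. The log2 differences were -0.7377 for Irf9, -0.634 for Stat2, -2.482 for Ifi27l2a, -2.537 for Cxcl10, -1.336 for Gbp2, -0.9418 for Irgm1, -1.059 for Irgm2 and -1.869 for Igtp.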

How the results depend on the processing

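All class counts at day 5 stayed within 1.5 times of the reported ones under every alternative run, and leaving out 1 library gave 8 to 11 for the GBP, IRG and CXCL genes. Gene results kept direction and call in 94 of 94 cases with DESeq2 and with a fit that was not robust, and in 74 of 94 with limma voom. At 1 month the GBP, IRG and CXCL genes called higher numbered 5 with voom (median 0.96), and 1 each with RLE factors, total counts, no filter (1 lower, Cxcl11), a 1 CPM filter, a replicate block and Ifi47 counted with the type I targets. Type I targets with a lower effect at 1 month numbered 6 with DESeq2, 20 with voom (1 higher), 11 without the libraries low in Y-linked genes, 10 without those with a GC correlation above 0.4 and 9 with that correlation as a covariate. Over all genes voom called 5688 higher and 6005 lower at day 5, and 4037 higher and 4179 lower for the difference in effects. That difference had 1697 higher and 2933 lower without the libraries low in Y-linked genes, 1085 lower without those of high GC correlation, and 1444 higher and 1389 lower with the covariate. Within wild type over time the members called higher numbered 2 with DESeq2, RLE factors, total counts, the 1 CPM filter, only 12 libraries or either set of libraries left out, 3 with voom (16 lower) and 0 with the covariate, and those called lower 11 without the libraries low in Y-linked genes and 3 without the highest day 5 libraries.

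Replicate numbers did not pair the libraries, since same-numbered libraries had correlations of -0.16 to 0.05 at day 5 and -0.73 to 0.26 at 1 month, where 1 of the libraries correlated best with its own number. With the replicate block the difference in effects had 463 genes lower, 1 GBP, IRG or CXCL gene was lower, 0 members were higher in wild type over time, and the 1-month values of Ifih1 and Ifit3 were -0.013 and 0.0063.

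Uncalled 1-month values changed sign with voom for Irf9 (-0.078), Ifi35 (-0.29), Isg15 (-0.26), Ifit2 (0.64), Ifit3b (0.13) and Ifit3 (0.42). Among them Ifit2 was called higher with voom (limma adjusted p = 0.045). With total counts the value of Irf9 changed sign (-0.011). Without the libraries low in Y-linked genes those of Irf9 (-0.013), Ifi35 (-0.32), Isg15 (-0.18), Ifit2 (0.31) and Ifit3 (0.13) did so. Without those of high GC correlation the values were -0.10 for Ifi35, 0.065 for Ifit2 and 0.010 for Ifit3, and with the covariate -0.27 for Ifih1 and -0.26 for Iigp1. The cause was not tested. Leaving out 1 library gave 1 to 3 GBP, IRG and CXCL genes higher at 1 month, 2 to 6 type I and 2 to 5 GBP, IRG and CXCL genes with a lower effect, and 0 to 2 higher and 3 to 7 lower members in wild type over time. The 1-month values then ran from -0.0059 to 0.25 for Ifi35, -0.074 to 0.32 for Rsad2, -0.16 to 0.27 for Ifih1, -0.31 to 0.12 for Ifit2, -0.030 to 0.61 for Iigp1, -0.40 to 0.019 for Ifit3b, -0.22 to 0.0018 for Irgm2, -0.14 to 0.25 for Ifit3 and -0.21 to 0.056 for Igtp. The alternatives on Y-linked genes, GC and the highest day 5 libraries were chosen after seeing the data.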

Other observations

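Of 40 further interferon targets outside the member list, 36 could be tested. At day 5 26 were higher and 1 lower in mutant ears, against 20.7% and 20.2% of all genes, and at 1 month 19 were higher and 3 lower, against 25.5% and 21.5%. Slfn1, a regulator of T cell growth in mice, had 9.37, 40.1 and 53.4 CPM in the lowest, median and highest mutant library against 0.231, 0.327 and 0.638 CPM in wild-type libraries at day 5. At 1 month it had 4.52, 5.84 and 14.2 CPM in mutant against 0.316, 0.517 and 1.65 CPM in wild-type libraries, with log2 fold changes of 6.47 and 3.35. Ifitm3, which blocks virus entry, was higher at both times (2.24 and 1.58). Ciita, the master regulator of MHC class II genes and an interferon-γ target, had log2 fold changes of 1.08 at day 5 and 1.89 at 1 month, and the effects differed by 0.82 (edgeR adjusted p = 0.0222). Oas1c, an OAS gene outside the member list, fell at both times by 0.56 and 0.81 on the log2 scale. Of 10 further GBP and IRG genes 9 were tested, and Gbp8 alone was called higher at day 5 (1.32), a share below that of all genes. At 1 month 1 of these 9 was called higher and 1 lower, against 25.5% and 21.5% of all genes. Their log2 fold changes at 1 month ran from -1.96 to 2.30.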
